A study of Mus musculus with 8 samples.

Results

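Pericentral hepatocytes, those around the central vein of the liver lobule, receive Wnt ligands from the endothelium of that vein. A Wnt ligand bound to a Frizzled receptor and an LRP co-receptor halts the complex of AXIN, APC and GSK3β that marks β-catenin for destruction, and β-catenin then reaches the nucleus and binds TCF/LEF factors on target genes. In hepatocytes those targets include the glutamine and ammonium genes of the pericentral zone, and also genes that dampen the pathway itself. The genes followed here were 10 of these targets, Glul, Axin2, Sp5, Rgn, Tbx3, Lgr5, Lect2, Rhbg, Rnf43 and Nkd1. All probes annotated to these 10 symbols were taken that had a detection p-value of 0.05 or less, the chance of so bright a signal among the negative control beads, in 1 or more of 8 arrays. This gave 10 probes for 8 genes, out of 9640 named genes with a detected probe, 19618 detected probes and 45281 probes on the array. Glul, Axin2, Sp5, Rgn, Lgr5, Rhbg and Nkd1 had 1 probe each and Tbx3 had 3, while no detected probe carried the symbol Lect2 or Rnf43 in the annotation used here. Of the 10, Glul lay nearest to the detection limit with a lowest detection p-value of 0.0374, and none lay beyond it, since the annotation covers detected probes only. The set was chosen by gene role with the log2 differences between AAV-Cre and AAV-GFP on these same arrays already known, so the differences below, those of Sp5 and Rgn above all, are a description and support nothing further.

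RNA came from hepatocytes that the study isolated by perfusion and a Percoll gradient, from mice of CD1 x 129S1/SvImJ background aged 2 to 3 months. Every mouse was Gata4 fl/fl, with loxP sites in both alleles of the gene for the zinc finger factor GATA4, and all received an AAV8 vector intravenously 2 weeks before RNA was taken. In the 4 AAV-Cre samples the vector was AAV8-Tbg-Cre, which supplies the recombinase, and in the 4 AAV-GFP controls it was AAV8-Tbg-GFP. The Tbg promoter is active in hepatocytes, so other liver cells are not a target of the recombinase, and the share of alleles excised was not measured here. Whether each array stands for a separate mouse is not stated in the labels, and the p-values then measure only how these samples scatter, which may in part be technical.

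Each sample had 1 array, with between 14788 and 16387 detected probes, the fewest in AAV-Cre replicates 3 and 4. These 2 arrays were also nearer to each other than to any other array, with a root mean square difference of 0.48 on the log2 scale. AAV-GFP replicates 1 and 4 had a normalized log2 Xist signal of 13.33 and 13.78 on the brightest probe, against 5.07 to 5.33 in the other 6 arrays. Of the other sex-linked genes measured, Uty was detected in 6 arrays and Kdm5d in 4. The labels give no sex. High Xist was found in controls only, so sex, if Xist reflects it, is partly confounded with the groups. The probe of the targeted gene, Gata4, read 5.31, 5.37, 5.02 and 5.10 in the controls (by replicate, from 1 to 4) and 6.28, 5.85, 5.72 and 5.84 in the AAV-Cre arrays, all 4 of which were above all controls. The log2 difference was 0.72 ± 0.16 (adjusted p 0.518 in limma, rank 50 by p), higher in the group labelled as excised. The probe was above background only in AAV-Cre replicate 1, and its place relative to the excised part is not known here. It therefore does not bear out the labels, and every direction below rests on them. The study itself reported lower GATA4 RNA by RT-qPCR and lower GATA4 protein by western blot in AAV-Cre hepatocytes. Whether these array samples were among those is not stated in the sources read. Of the markers listed for hepatocytes 6 of 9 were measured, 2 with a higher and 4 with a lower mean in AAV-Cre, from −0.47 for Serpina1a to 0.21 for Apob, with a median log2 difference of −0.073. The markers of other liver cells were measured too. All 10 measured endothelial markers (of 12) had a higher mean in AAV-Cre, with a median log2 difference of 0.50 and a summed signal of 4944 to 10729 in AAV-GFP and 7408 to 10757 in AAV-Cre. All 8 measured Kupffer cell markers (of 10) did likewise, with a median of 0.51 and a summed signal of 1095 to 1903 against 1802 to 2649. None of these markers passed the adjusted test over all probes. For comparison, a lower mean in AAV-Cre was found for 43.6% of all detected probes. At an unadjusted p under 0.05, 3 endothelial markers (Plvap, Stab1 and Stab2, the last at 1.03) and 4 Kupffer cell markers (C1qb at 1.26, C1qc, Csf1r and Vsig4) were higher, as were 5.2% of all probes. Among cholangiocyte markers 2 of 6 were measured, and the defining Krt19, Krt7 and Epcam were not. Sox9 averaged 9.62 in AAV-GFP and 10.81 in AAV-Cre, a difference of 1.19 ± 0.29 (unadjusted p 0.0027, adjusted p 0.518 in limma). Cldn7 had 0.21 ± 0.23. For stellate cells and fibroblasts 5 of 9 markers were measured, 3 higher and 2 lower, with a median difference of 0.16. Acta2, detected in 2 arrays, was the 1 higher at an unadjusted p under 0.05 (0.49 ± 0.18). In RNA from a mixture, fewer cells of a type and less of its RNA per cell cannot be told apart, and what part these markers had in the member values was not tested.

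The promoters of 2 members are shown: Sp5, which had the largest difference between the groups, and Axin2, a widely used reporter of Wnt signalling. Both run from 250 bases before to 50 after the RefSeq gene start on the plus strand of GRCm38.p6. Capitals mark each match, on either strand, to the core that TCF/LEF factors bind (CTTTGAT or CTTTGAA) and to the GATA motif (AGATAA or AGATAG, or else TGATAA or TGATAG).
Sp5, chr2:70474673-70474972: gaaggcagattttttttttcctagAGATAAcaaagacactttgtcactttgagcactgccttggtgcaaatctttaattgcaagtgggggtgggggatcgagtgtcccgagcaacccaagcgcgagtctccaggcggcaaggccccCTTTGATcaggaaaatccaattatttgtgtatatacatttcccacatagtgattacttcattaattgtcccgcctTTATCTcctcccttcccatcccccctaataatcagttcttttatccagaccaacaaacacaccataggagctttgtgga
Axin2, chr11:108920099-108920398: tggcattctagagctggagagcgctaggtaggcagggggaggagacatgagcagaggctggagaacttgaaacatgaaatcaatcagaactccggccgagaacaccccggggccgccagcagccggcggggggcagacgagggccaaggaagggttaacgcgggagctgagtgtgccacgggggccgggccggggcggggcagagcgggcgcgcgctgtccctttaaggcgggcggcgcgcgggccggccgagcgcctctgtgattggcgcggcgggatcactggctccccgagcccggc

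The Sp5 window held CTTTGAT, beginning 104 bases before the start, and AGATAA on the gene's own strand (226 bases before) and on the opposite strand (from 29 bases before). The Axin2 window held none of these letters. Windows were found for 6 of the 10 members, 7 windows in all because Rnf43 had 2. Of these, Lect2 held 1 TCF/LEF and 2 GATA matches, 1 Rnf43 window held 3 GATA matches, and the Glul and Nkd1 windows held none. Among all 32851 windows of this length, 8.65% had a TCF/LEF match, 29.8% a GATA match and 3.38% both. A match describes these letters only, and its absence says nothing of binding elsewhere.

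Of the 10 member probes, 7 had a lower and 3 a higher mean in AAV-Cre than in AAV-GFP, and the median of the 10 log2 differences was −0.45. Over all detected probes, 43.6% had a lower mean in AAV-Cre and the median difference was 0.044. No member passed an adjusted p of 0.25 in limma, where 0.0051% of all probes (1 of 19618) did, and the adjusted p-values of the members lay between 0.514 and 0.789. At an unadjusted p under 0.05, 2 members were lower in AAV-Cre, Sp5 and Rgn, and 0 were higher. Of all probes 9.46% passed this limit, 4.26% lower and 5.2% higher. The same 2 had every AAV-Cre array below every AAV-GFP array, which held for 1.74% of all probes. Single arrays moved the median, which moved to −0.22 when AAV-Cre replicate 1 was left out and to −0.26 when AAV-GFP replicate 1 was. Without AAV-Cre replicates 3 and 4, 8 of 10 were lower and the median was −0.60. Without AAV-GFP replicates 1 and 4, 8 members had a value, 5 of them lower, with a median of −0.32.

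**Figure D1:**
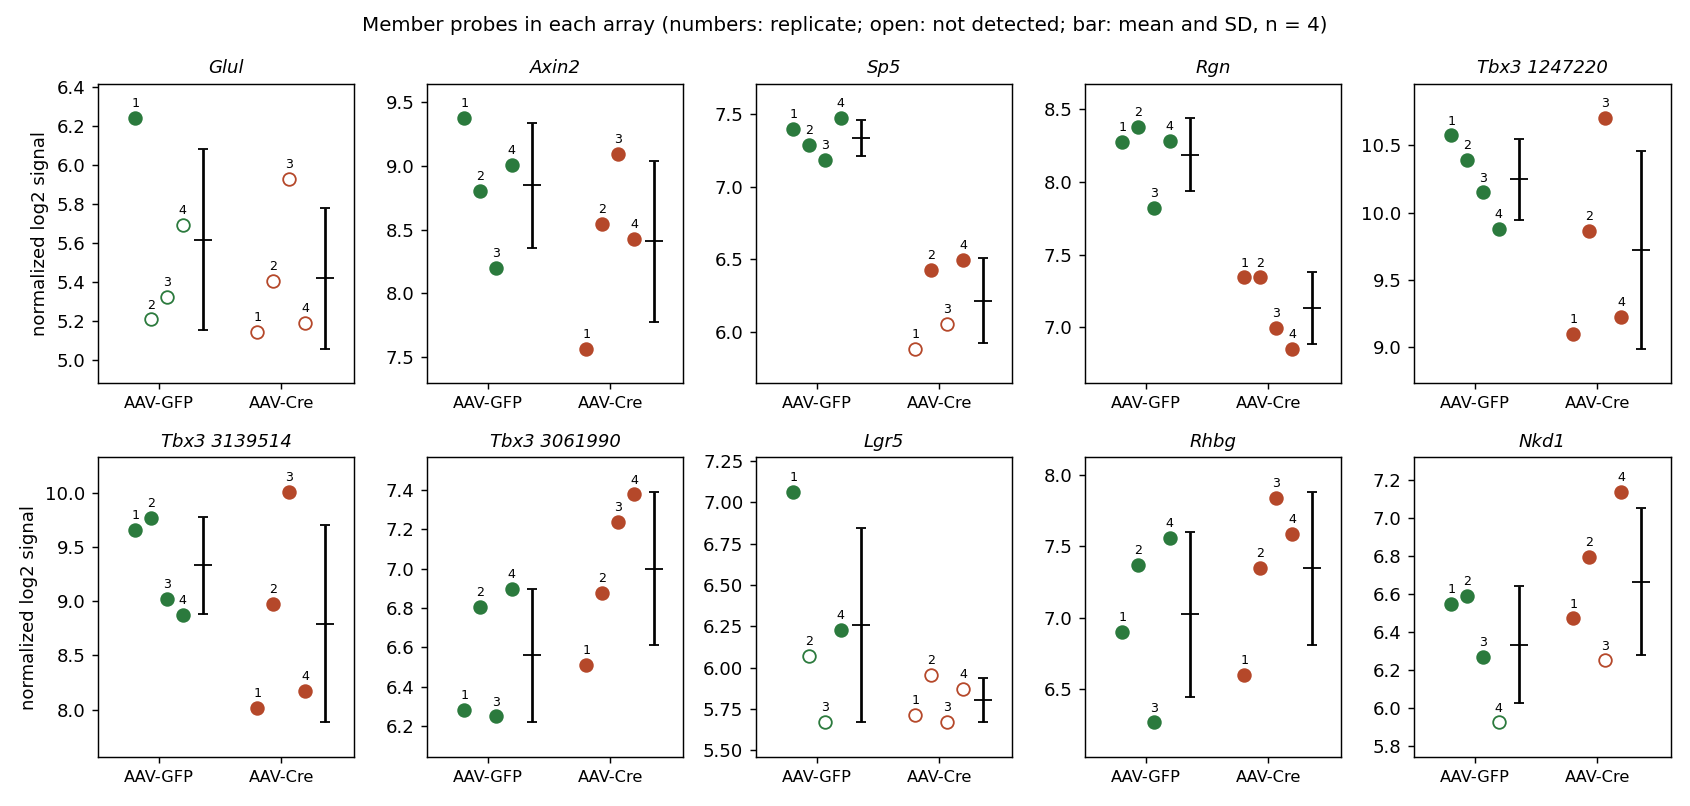
Normalized log2 signal (y axis, its own range in each panel) of the 10 member probes in the 4 AAV-GFP and 4 AAV-Cre arrays, with replicate numbers, open circles where the probe was not detected, and the mean and SD of each group. The groups are apart for Sp5 and Rgn and overlap for the other 8 probes.

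Sp5 encodes a zinc finger factor of the SP family that is a direct target of β-catenin in many tissues. Given in the order of replicates 1 to 4, as for every gene below, the 4 controls had a normalized log2 signal of 7.40, 7.29, 7.19 and 7.47, and the AAV-Cre arrays one of 5.89, 6.43, 6.06 and 6.50. All 4 control arrays were tightly grouped and above all 4 AAV-Cre arrays, with 0.69 between the closest pair. The means were 7.34 ± 0.13 and 6.22 ± 0.29 (SD, n = 4 each), a log2 difference of −1.12 ± 0.17 (SE) or 2.17-fold less, with an adjusted p of 0.514 in limma. By p it stood 3rd of the 19618 probes. The probe was dim: the deposited signals were 422 to 514 in AAV-GFP and 320 to 351 in AAV-Cre. It was detected in all 4 AAV-GFP arrays and only in AAV-Cre replicates 2 and 4. The size therefore depended on the treatment of background, and in the authors' value table, which has no background correction, the log2 difference was −0.34. By the SAM statistic, which the study's methods name, 9 probes (0.0459% of all) were called on the background-corrected values, 4 of them lower in AAV-Cre (0.0204%), with Sp5 among these. On the authors' value table it called 481 of 16820 probes (2.86%), of which 463 were higher and 18 lower (0.107%), and Sp5 and Rgn were among the 18.

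Rgn encodes regucalcin, a calcium-binding protein of hepatocytes that is also the gluconolactonase of vitamin C synthesis in rodents. The AAV-GFP arrays read 8.27, 8.37, 7.82 and 8.28, and the AAV-Cre arrays 7.34, 7.34, 7.00 and 6.85. Again no AAV-Cre array reached the lowest control, which was AAV-GFP replicate 3, and 0.47 lay between the groups. The log2 difference was −1.05 ± 0.18 (SE, n = 4 per group), or 2.07-fold less, with an adjusted p of 0.518 in limma and rank 7 by p. Rgn was detected in all 8 arrays, with deposited signals of 343 to 694. Without background correction its difference was −0.45. The gene lies on the X chromosome, and without the pair of controls with high Xist the difference was −0.96, with Sp5 at −0.98.

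**Figure D2:**
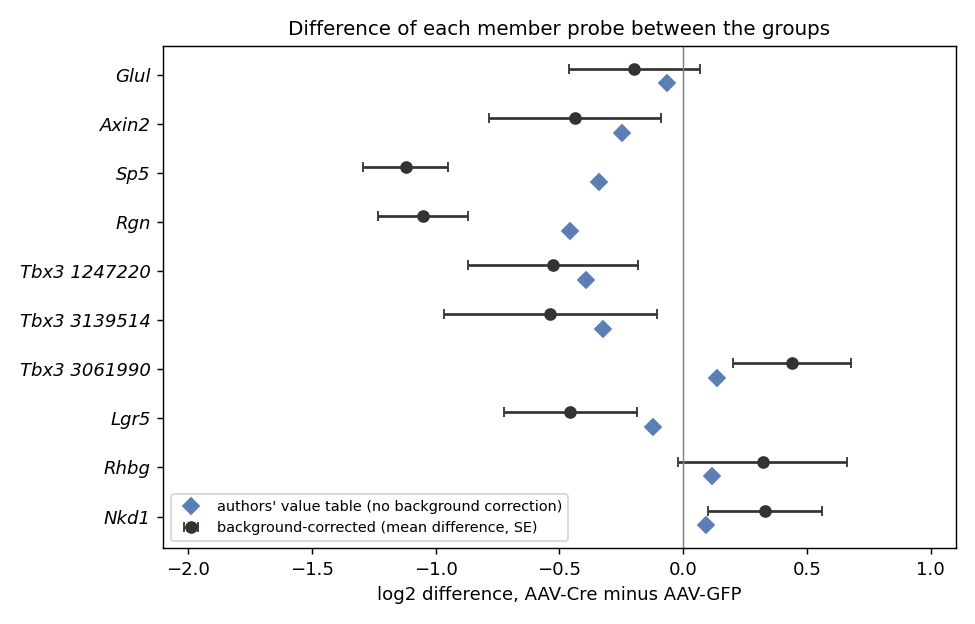
Log2 difference, AAV-Cre minus AAV-GFP (x axis), of each member probe (y axis), from background-corrected values with SE (circles, n = 4 per group) and from the authors' value table (diamonds). Every probe keeps its side of 0, and the sizes are smaller in the value table, as for Sp5 at −1.12 and −0.34.

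Axin2 and Nkd1 are negative feedback genes of the pathway: AXIN2 is a scaffold of the destruction complex, and NKD1 binds Dishevelled. Axin2 read 9.37, 8.80, 8.20 and 9.01 in AAV-GFP and 7.56, 8.54, 9.09 and 8.43 in AAV-Cre. The groups overlapped, with AAV-Cre replicate 1 alone below all controls and AAV-Cre replicate 3 above 3 of the 4. The difference was −0.44 ± 0.35, adjusted p 0.636 in limma. It rested on few arrays. Leaving out AAV-Cre replicate 1 gave −0.16, leaving out replicates 3 and 4 of that group gave −0.79, and leaving out the controls with high Xist gave −0.092. Nkd1 lay near background, at 6.55, 6.59, 6.27 and 5.92 in AAV-GFP and 6.47, 6.80, 6.25 and 7.14 in AAV-Cre. It was detected in 3 arrays of each group, 2 AAV-Cre arrays stood above all controls, and the difference was 0.33 ± 0.23 (adjusted p 0.593). Without AAV-Cre replicate 4 it was 0.18 and without AAV-GFP replicate 4 it was 0.19. RNF43, a ubiquitin ligase that removes Frizzled from the cell surface, is the third feedback gene of the set and was not measured under its name.

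Lgr5, a receptor for R-spondins that marks the hepatocytes next to the central vein, read 7.06, 6.07, 5.67 and 6.23 in AAV-GFP and 5.71, 5.96, 5.67 and 5.87 in AAV-Cre. It was detected in AAV-GFP replicates 1 and 4 and in no AAV-Cre array. These are the arrays with high Xist, and the part of that in the Lgr5 signal was not tested. The difference of −0.46 ± 0.27 had an adjusted p of 0.545 in limma. It was −0.18 without AAV-GFP replicate 1, and without both arrays that detected it no value was left. Since 2 of the 4 controls did not measure the probe either, no fold is given.

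Tbx3, a T-box transcriptional repressor, had 3 probes annotated to the gene, and they disagreed in sign. Whether they report the same transcript is not known here. The brightest, ILMN_1247220, read 10.57, 10.39, 10.15 and 9.88 in AAV-GFP and 9.10, 9.86, 10.70 and 9.23 in AAV-Cre. AAV-Cre replicates 1, 2 and 4 were below all controls and replicate 3 was above all of them. ILMN_3139514 read 9.66, 9.77, 9.02 and 8.87 against 8.02, 8.98, 10.01 and 8.17, again with AAV-Cre replicate 3 the highest of the 8 and replicates 1 and 4 the lowest. The differences of these 2 probes were −0.53 ± 0.34 and −0.54 ± 0.43, with adjusted p-values of 0.571 and 0.637. Their size rested on single arrays of AAV-Cre, at −0.85 and −0.94 without replicate 3 and at −0.32 and −0.28 without replicate 1, with the other arrays left in. Without replicate 4 they were −0.36 and −0.33. The dimmest probe, ILMN_3061990, read 6.29, 6.81, 6.25 and 6.90 against 6.51, 6.88, 7.24 and 7.38, with AAV-Cre replicates 3 and 4 above all controls. Its difference was 0.44 ± 0.24 (adjusted p 0.533), opposite to the other 2 probes, and 0.14 without AAV-Cre replicates 3 and 4. All 3 probes were detected in every array, and no direction could be given to the gene.

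Glul encodes glutamine synthetase, the best-known protein of the pericentral ring, and Rhbg an ammonium transporter of the same hepatocytes. Glul read 6.24, 5.21, 5.33 and 5.69 in AAV-GFP and 5.15, 5.41, 5.93 and 5.19 in AAV-Cre. It was above background only in AAV-GFP replicate 1, at a deposited signal of 382.9, so that the difference of −0.20 ± 0.26 (adjusted p 0.789 in limma) compares values that are mostly background and no fold is given. How well this probe reports Glul RNA was not tested, and the label of the set as pericentral cannot be checked from it. Rhbg was detected in all 8 arrays, at 6.90, 7.37, 6.26 and 7.56 in AAV-GFP and 6.60, 7.35, 7.84 and 7.59 in AAV-Cre. The 2 groups overlapped, and the difference of 0.32 ± 0.34 (adjusted p 0.731) was 0.068 without AAV-GFP replicate 3 and turned to −0.049 without AAV-Cre replicates 3 and 4. Lect2, which encodes a protein secreted by hepatocytes, was not measured under its name.

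The members did not vary as a block across arrays. Each value was set against the mean of its probe over the 8 arrays. AAV-Cre replicate 1 was below that mean for 10 of 10 probes and the lowest array for 5, with a median deviation of −0.48. AAV-Cre replicate 3 had a median deviation of 0.43 and was the highest array for 3 probes, both brighter Tbx3 probes and Rhbg, while Sp5 and Rgn were 0.72 and 0.66 below their own means in it. The median deviation was −0.084 in AAV-Cre replicate 2 and −0.24 in replicate 4. For the controls it was 0.60, 0.18, −0.21 and 0.19. By this median AAV-Cre replicate 3 stood above 3 of the 4 controls, and AAV-GFP replicate 3 stood below AAV-Cre replicates 2 and 3.

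**Figure D3:**
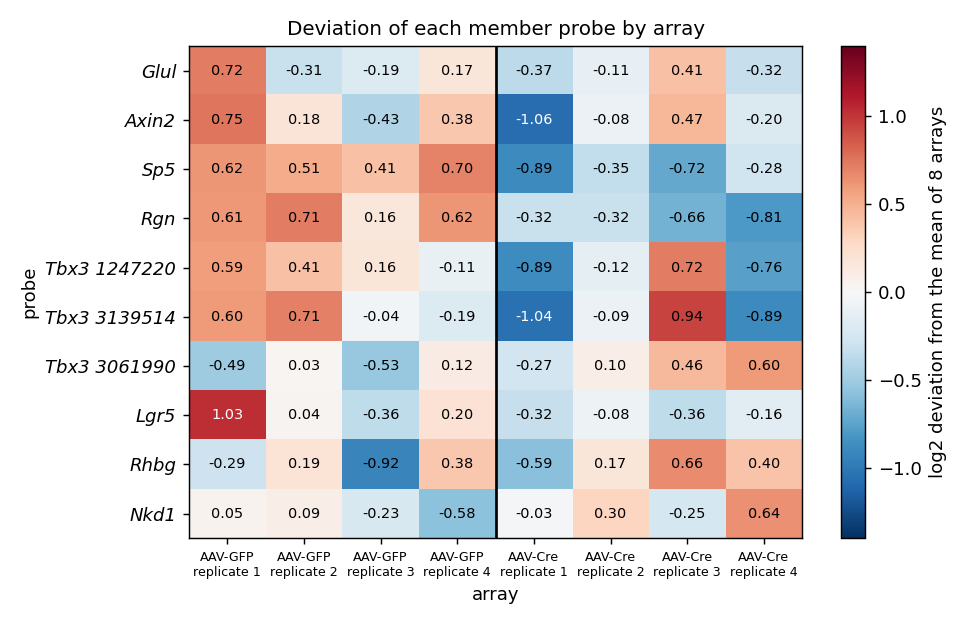
Deviation of each member probe (rows) in each array (columns) from its mean over the 8 arrays, on the log2 scale, with the line between the groups. Only the Sp5 and Rgn rows have 1 sign throughout each group, and AAV-Cre replicate 1 is below the mean in all 10 rows.

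The probes with profiles nearest to 3 members were found by the root mean square difference of centred log2 values over 8 arrays, among 14407 other named probes. For Sp5 they were Zfp157 (0.23), Usp14 (0.28) and Cd82 (0.28), and Rgn was 9th at 0.30. For Rgn they were Rgs12 (0.21), Aqp11 (0.22) and Tceanc2 (0.23), and Sp5 was 51st. The profile of Glul, being mostly background, was nearest to Pwwp2b (0.15), Tcea2 (0.16) and Cxcl11 (0.17), with Lgr5 634th and Axin2 514th. The ranks describe likeness in these 8 arrays, which share 2 groups.

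Upstream of the members, the Wnt ligand and receptor genes had 13 of 22 measured, of which 9 had a higher and 4 a lower mean in AAV-Cre, with a median log2 difference of 0.062. None passed the adjusted test, and 1 was lower at an unadjusted p under 0.05, as were 4.26% of all probes. That gene was the Frizzled receptor gene Fzd6 at −0.64 ± 0.27 (adjusted p 0.518 in limma). The Fzd6 probe lay near background and was detected in only 4 arrays. Rspo3, the R-spondin made by central vein endothelium, was detected in 2 arrays with a difference of 0.32, and the co-receptor gene Lrp6 had −0.18. The central vein ligands Wnt2 and Wnt9b were not measured under these names. Among intracellular transducers 21 of 28 were measured, 10 higher and 11 lower with a median of −0.022, and again none passed.

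Ctnnb1, the gene for β-catenin itself, read 13.20, 12.81, 12.90 and 12.90 in AAV-GFP and 12.90, 13.03, 10.99 and 11.27 in AAV-Cre. The first 2 AAV-Cre arrays were at the control level, and replicates 3 and 4 were far below it. The difference of −0.91 ± 0.46 had an adjusted p of 0.523 in limma, was shared in direction by the other 2 probes of the gene (−0.64 and −0.50), and was 0.0080 without those arrays. The dimmest probe, at −0.50, did not show this split of the AAV-Cre arrays. It read 7.90, 6.90, 7.94 and 8.50 in AAV-GFP and 7.87, 6.76, 6.89 and 7.74 in AAV-Cre. Tcf7l2, which encodes the main TCF factor of hepatocytes, was the only named pathway gene outside the members whose groups were apart. Its values were 10.12, 9.96, 10.22 and 10.03 in AAV-GFP and 10.40, 10.24, 10.50 and 10.70 in AAV-Cre. All 4 AAV-Cre arrays were above all controls, as they were for 3.12% of all probes, and the difference was 0.38 ± 0.14 (adjusted p 0.518), while a second, dimmer probe had 0.085. Apc (0.23), Gsk3b (0.20) and Axin1 (−0.022), which encode the destruction complex, had standard errors of 0.18, 0.20 and 0.16. Of the inhibitor genes 5 of 17 were measured, 4 higher and 1 lower with a median of 0.22, including Znrf3, the partner of Rnf43, which was detected in 1 array.

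**Figure D4:**
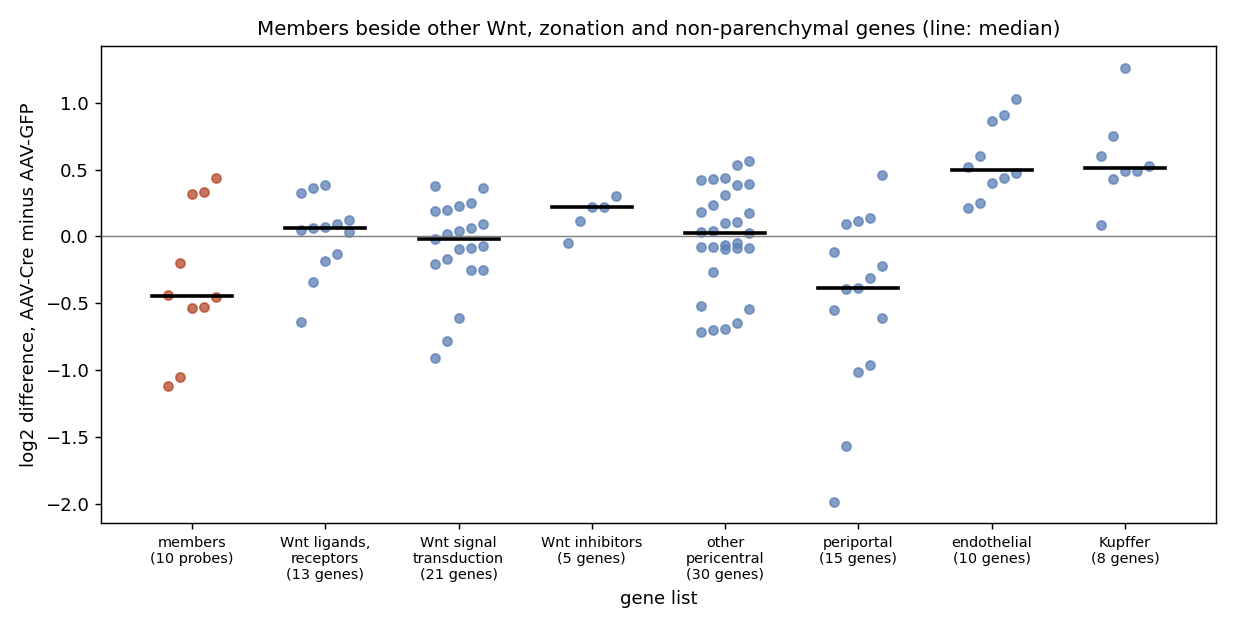
Log2 difference, AAV-Cre minus AAV-GFP (y axis), of the 10 member probes and of the measured genes of 7 lists (x axis), 1 point per probe or gene, with the median as a line. The member median is −0.45, that of the other pericentral genes 0.029 and that of the periportal genes −0.38.

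The other pericentral genes did not share the lower median of the members, but the 2 lists also differed in brightness. In AAV-GFP the brightest member probe averaged 10.25 (Tbx3), while many other pericentral genes were far brighter, up to 15.97 for Cyp3a11. What part brightness had in the 2 medians was not tested. Of the 35 other pericentral genes, 30 were measured, 16 with a higher and 14 with a lower mean in AAV-Cre. Their median difference was 0.029, and none passed the adjusted test. They ranged from the cytochrome P450 gene Cyp2c29 (−0.71 ± 0.28, the 1 lower gene at an unadjusted p under 0.05) to Lhpp (0.56 ± 0.35). Cyp1a2, which encodes a xenobiotic cytochrome P450, had 0.42 ± 0.34, which shrank to 0.14 without AAV-GFP replicate 1 and to 0.032 without AAV-Cre replicates 3 and 4. The ornithine aminotransferase gene Oat had 0.24 ± 0.31, which turned to −0.076 without AAV-GFP replicate 1 and to −0.18 when replicate 4 was left out as well. The brightest probe of the glutamate transporter gene Slc1a2 had 0.38 ± 0.36 and 0.085 without AAV-GFP replicate 3, but its 3 detected probes ranged from −0.80 to 0.46, so the gene has no single direction here. In the opposite zone, 15 of 23 periportal genes were measured, 4 higher and 11 lower, with a median of −0.38 and none past the adjusted test. Of all detected probes, 43.6% had a lower mean in AAV-Cre. At an unadjusted p under 0.05, 3 were lower, Hsd17b6 (−1.98 ± 0.81), Aldh1b1 (−1.57 ± 0.55) and Sult5a1 (−1.02 ± 0.36), as were 4.26% of all probes. How far these 3 differences rest on single arrays was not tested. Pck1 of gluconeogenesis had −0.61, the cadherin gene Cdh1 −0.55 (−0.20 without AAV-GFP replicate 1) and the histidine ammonia-lyase gene Hal −0.40, which turned to 0.13 without AAV-Cre replicates 3 and 4. These values are from the brightest probes, and a second detected probe had −0.95 for Pck1 and −1.28 for Hal. Without AAV-Cre replicates 3 and 4 the periportal median was −0.16, and the median of the other pericentral genes was 0.00014.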

How the data were processed

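The study measured total RNA, labelled by a TargetAmp-Nano kit, on 1 Illumina MouseWG-6 v2 bead array per sample. GenomeStudio gave the signal of each probe and the deposited detection p-value, its version not being given in the sources read. The deposited signal is a linear intensity, neither background-subtracted nor normalized. A deposited value table holds the authors' quantile-normalized intensity of 16820 probes, within 0.0389 of a quantile normalization of the signals on the log2 scale, with column medians of 708.1 to 709.1.

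The neqc function of limma 3.58.1 (R 4.3.3) took the background from the detection p-values, subtracted it by normexp, added an offset of 16, equalised the quantiles of the arrays and took log2. Every probe detected (p of 0.05 or less) in 1 or more arrays was fitted with lmFit and eBayes, without covariates, and adjusted by Benjamini-Hochberg over 19618 probes, with calls at 0.25, a threshold of the study's methods. Differences are given on the log2 scale, ± SE, and are negative where AAV-Cre was lower. The median SE of 0.21 and the 4 arrays per group limit the precision. On data simulated for this comparison with 19618 probes, limma called 58% of the probes changed by 1 on the log2 scale and 99% of those changed by 2. The simulated noise was normal and independent for each probe and array, without the likeness between some arrays seen here. The shares also depend on how many probes were changed and by how much, which the simulation set and which is unknown for the real arrays. These shares therefore need not hold there and may be too high. Symbols came from a platform annotation that can be old and covers the value table only. SAM was computed by a script over 70 labellings, with calls below a false discovery rate of 0.25.

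The members and gene lists were chosen with earlier results of these data known. The text names every detected member probe, the brightest detected probe of 20 other genes fixed by role (14 measured; Cyp2e1, Cps1, Ass1, Cyp2f2, Wnt2 and Wnt9b were not), the 3 nearest profiles to Glul, Sp5 and Rgn, and Xist, Gata4 and Alb as checks (Alb averaged 9.74 in AAV-GFP and 9.52 in AAV-Cre). The Alb probe was dim beside that of F10, which averaged 15.25 in AAV-GFP, and how well it reports Alb RNA was not tested. Other list genes, named for the extremes or the unadjusted p, were chosen after their values were seen. Alternatives varied the arrays used, the test, the filter, the choice of probe, weights, variance model and block, and the correction, offset, normalization and source of the values. SAM on the value table and the alternatives of list medians and profile likeness were chosen after seeing the data. Promoter sequences are RefSeq's, from GRCm38.p6. Figures were drawn with matplotlib.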

Additional observations from a re-analysis of the deposited data

How the results depend on the processing

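Under 21 alternative settings the 10 member probes gave 202 values, of which 0 passed the adjusted threshold in limma and 1 changed sign, Rhbg at −0.049 without AAV-Cre replicates 3 and 4. Sp5 ranged from −1.24 to −0.34 and Rgn from −1.17 to −0.45, with a lowest adjusted p of 0.284 for both, and the member median from −0.60 to −0.19 (the authors' value table, with −0.22 without AAV-Cre replicate 1). The count of called probes was 1 and became 2 without background correction, with an offset of 50, with 75th percentile scaling, with trend and robust eBayes or with array weights, 3 in the authors' value table, 9 by SAM and 481 by SAM on that table. Leaving out 1 array gave 1 to 10 called probes, the most without AAV-GFP replicate 2, and 997 to 3126 probes at an unadjusted p under 0.05, against 1856 with all arrays. That count was 3402 with no detection filter and more probes tested. With fewer samples it was 1013 (without AAV-GFP replicates 1 and 4) or 730 (without AAV-Cre replicates 3 and 4). With the replicate number as a block, 1 probe was called, 2078 had an unadjusted p under 0.05, the member median was −0.45 and no member's call changed. Same-numbered arrays correlated at 0.19, 0.068, 0.017 and 0.13 in their deviations from the group means, and 3 of the 4 AAV-GFP arrays correlated best with the AAV-Cre array of their own number. AAV-GFP replicate 2 and AAV-Cre replicate 2 were the nearest of all pairs of arrays, with a root mean square difference of 0.46. The study used a paired t test for its RT-qPCR. With correlations under 0.1 in 2 of the 4 pairs the main fit was left unpaired, but whether the arrays were paired is not known here. Among other genes, Axin1 turned to 0.033 with 75th percentile scaling, and ranged from −0.13 to 0.066 over arrays left out (0.0048, 0.020 and 0.066 where it turned). Oat ranged from −0.076 to 0.47 over arrays left out, the lowest without AAV-GFP replicate 1, and was −0.18 without AAV-GFP replicates 1 and 4, where Gsk3b was −0.070. Without AAV-Cre replicates 3 and 4, Ctnnb1 was 0.0080 and Hal 0.13. The cause of these shifts was not tested. Glul had no value without AAV-GFP replicate 1, its only array above background, nor did Glul, Lgr5 and Nkd1 when detection in all arrays of a group was required.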
